A study of Homo sapiens with 8 samples.

Results

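The transcripts described are the spliced transcripts of a long-read assembly that lie outside every gene of the annotation the authors compared it with. They were chosen as transcripts with the class code u (intergenic) and at least 2 exons. Of 599 such transcripts in the combined assembly, 589 have a row of counts and 10 do not. The 589 make up 0.610% of the 96614 transcripts counted, and the assembly places them in 308 loci (transcripts it joins under 1 gene identifier). Another 1154 intergenic transcripts have a single exon and were used for comparison.

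Long noncoding RNAs are transcripts without a known coding frame, and many are made in few cell types. In human pluripotent cells a well-known source of them is HERVH, a family of endogenous retroviruses whose long terminal repeats act as promoters in these cells. Reads from full-length cDNA show which exons lie on 1 molecule, so such transcripts can be told apart by their splice sites.

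All libraries were made from H1, a human embryonic stem cell line grown on Matrigel in mTeSR1 medium, and read on a PacBio Sequel II. The pluripotent group (hPSC) was not differentiated, and the other groups were collected after 5 days in a changed medium. Endoderm medium held WNT3A and Activin A in RPMI with FBS. Mesoderm medium held VEGF, BMP4 and bFGF, with Activin A for the first 24 hours. Ectoderm medium held KOSR with A83-01, PNU-74654 and Dorsomorphin, which block TGF-beta, Wnt and BMP signalling. Each group has 2 libraries, the totals run from 503840 to 1180888 reads, and nothing in the labels says that the repeats were separate cultures. The p-values below therefore measure the spread between these libraries, which may be technical.

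The labels were checked against marker lists, with levels in CPM, the reads of a gene divided by those of the library and multiplied by 1e6. The pluripotency list summed to 4597 and 3870 CPM in hPSC and the endoderm list to 2266 and 2380 CPM in endoderm. The pluripotency list summed to 1379 and 1795 CPM in ectoderm, 2522 and 1967 CPM in endoderm and 766 and 967 CPM in mesoderm. NANOG and TDGF1 stood at means of 134 and 685 CPM in endoderm, 191 and 1061 CPM in hPSC and at most 1.98 CPM in ectoderm and mesoderm. POU5F1 had the same order, at 671 CPM in hPSC, 111 CPM in endoderm and at most 10.4 CPM in ectoderm and mesoderm. SOX2, LIN28A, L1TD1, DNMT3B and PODXL did not, and each was lower in endoderm than in ectoderm, mesoderm or both. SOX2 had a mean of 143 CPM in ectoderm and 0 CPM in endoderm. The part of the pluripotency markers in the endoderm results was not tested. Of the 5 ectoderm markers, PAX6, SIX3, LHX5 and DLK1 had reads in both ectoderm libraries and none in hPSC, while OTX2 was highest in endoderm (409 CPM, against 144 CPM in ectoderm and 108 CPM in hPSC). The mesoderm list summed to 1058 and 1151 CPM in the mesoderm libraries, but TBXT had 1 and 0 reads there and MIXL1 and FOXF1 had none. KDR, on the same list, had a mean of 1.93 CPM in mesoderm, against 94.0 CPM in hPSC and 41.0 CPM in endoderm. A list of 8 amnion and trophoblast markers summed to 6648 and 7324 CPM in mesoderm and to between 14.5 and 80.3 CPM in the other libraries, and all 8 had reads in both mesoderm libraries. The part of these markers in the mesoderm results was not tested. In bulk RNA, fewer cells of a type and less RNA per cell cannot be told apart.

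No genome was used, so sequence is shown only where a transcript starts in a RefSeq start window (GRCh38.p14, 250 bases before to 50 after a gene's start). This held for 28 of the 589 transcripts, at 19 loci. At 12 of these loci a window belonged to a coding gene on the other strand, and at 14 to a RefSeq gene on the same strand. Over 1 window per locus the median number of CG pairs was 26, with a range of 1 to 46, and the median over all 35116 windows was 14. The windows below show both kinds of neighbour, with CG content from low to high. Capitals mark the bases on the transcribed side of the intergenic transcript's start, and for the POP4 window that transcript runs on the strand opposite to the one printed.
XLOC_025452 at LOC105376177: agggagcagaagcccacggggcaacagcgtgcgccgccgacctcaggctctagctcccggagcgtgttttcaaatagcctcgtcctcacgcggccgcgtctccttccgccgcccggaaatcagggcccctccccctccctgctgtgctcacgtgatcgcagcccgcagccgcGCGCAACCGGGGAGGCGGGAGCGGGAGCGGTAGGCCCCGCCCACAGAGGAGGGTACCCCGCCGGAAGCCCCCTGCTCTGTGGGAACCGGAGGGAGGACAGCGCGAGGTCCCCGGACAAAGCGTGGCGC
XLOC_003725 at LOC105378550: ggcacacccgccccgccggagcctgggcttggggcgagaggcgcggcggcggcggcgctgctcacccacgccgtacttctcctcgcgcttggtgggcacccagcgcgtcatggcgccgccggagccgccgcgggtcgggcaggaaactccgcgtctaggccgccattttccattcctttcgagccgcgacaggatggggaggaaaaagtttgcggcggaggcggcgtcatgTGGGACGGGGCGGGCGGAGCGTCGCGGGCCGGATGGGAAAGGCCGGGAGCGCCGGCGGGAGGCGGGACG
XLOC_003998 at LOC102723575: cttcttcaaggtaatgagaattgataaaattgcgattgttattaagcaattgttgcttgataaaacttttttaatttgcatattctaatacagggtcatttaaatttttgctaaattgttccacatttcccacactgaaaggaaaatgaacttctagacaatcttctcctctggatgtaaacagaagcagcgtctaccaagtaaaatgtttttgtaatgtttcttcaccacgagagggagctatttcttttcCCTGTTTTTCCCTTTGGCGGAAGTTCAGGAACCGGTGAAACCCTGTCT
XLOC_013057 at POP4: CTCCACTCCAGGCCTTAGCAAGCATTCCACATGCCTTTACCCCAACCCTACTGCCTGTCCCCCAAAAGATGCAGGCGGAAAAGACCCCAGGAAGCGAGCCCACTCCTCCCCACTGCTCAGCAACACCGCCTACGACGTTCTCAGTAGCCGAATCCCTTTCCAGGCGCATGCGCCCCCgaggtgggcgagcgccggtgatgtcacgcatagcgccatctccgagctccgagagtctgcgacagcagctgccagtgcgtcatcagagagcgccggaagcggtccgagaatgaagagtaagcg

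These windows are chr9:100352819-100353118 on the plus strand, chr10:126905329-126905628 on the minus strand, chr11:59537156-59537455 on the plus strand and chr19:29606033-29606332 on the plus strand, with 34, 46, 5 and 23 CG pairs. Of the 19 loci that start in such a window, 1 had enough reads to be tested. This was XLOC_025452 (8 spliced forms, chr9:100352991-100398500, plus strand), which starts beside TEX10, a coding gene on the other strand. Its spliced forms had 33 and 24 reads in hPSC, 9 and 12 in endoderm, 59 and 41 in ectoderm and 27 and 9 in mesoderm. Reads of 7 other transcripts of the locus, of other classes, numbered 382 and 259 in ectoderm and 2 to 60 elsewhere. The spliced intergenic forms did not pass the test against hPSC in ectoderm (log2 fold change -0.62 ± 0.39 (SE), adjusted p = 0.196), endoderm (-1.20 ± 0.47, adjusted p = 0.0706) or mesoderm (-0.84 ± 0.43, adjusted p = 0.143). Without mesoderm repeat 1 it passed in mesoderm (-1.79, adjusted p = 0.0304, over alternatives 0.0304 to 0.761) and in endoderm (0.0493), and without hPSC repeat 2 in endoderm (0.0315, over alternatives 0.0315 to 0.296).

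The spliced intergenic transcripts had few exons and spanned less of the genome than known spliced transcripts, while their exons summed to a greater length. The median span was 8368 bp, against 22896 bp for spliced transcripts that match the reference. Of the 589, 344 had 2 exons, 148 had 3 and 97 had 4 or more, with a median of 2, where the reference-matching ones had a median of 7. The median summed exon length was 3405 nt, against 2871 nt. The most exons were the 9 of hEDT_00000073, on the scaffold KI270713.1, which had 3 and 0 reads in ectoderm and at most 2 in any other library. The longest was hEDT_00097886 on chromosome X, with 29937 nt in 3 exons, and it had 15 and 10 reads in ectoderm and 2 to 6 in every other library. Most transcripts were held by a single group assembly: 535 by 1 of the 4 and 54 by 2 or more. Reads were less confined, and 228 of the 589 had reads in at most 2 libraries.

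Among 297 loci on placed chromosomes the median distance was 15549 bp to the nearest gene of any kind in GENCODE 29 and 44283 bp to the nearest coding gene. A coding gene lay within 1000 bp of 25 loci and more than 100000 bp from 109. RefSeq, a different annotation, lists a gene over 182 of the 589 transcripts (106 loci). A single form was found at 217 loci and 5 or more at 23, with up to 22 at XLOC_018972. Of the 589, 287 transcripts, in 96 sets, shared both ends with a second spliced form of the same locus and differed from it by splicing alone.

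The first exon had nearly 1 length at loci on many chromosomes. In 122 of the 589 transcripts (20.7%) it was 250 to 254 nt long. These lay at 47 loci on 18 chromosomes, and 64 of them, at 25 loci, had a first exon of exactly 253 nt. Among the 30276 reference-matching spliced transcripts 0.941% fell in that range, and 1.94% fell in the fullest range of the same width. Among 20760 new splice variants of known genes the same shares were 0.968% and 2.15%. The range was chosen as the fullest one of 5 nt after the lengths were seen, so these shares are a description. Without XLOC_018972, which gave 12 of the 122, the share was 19.4%.

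Which libraries held these transcripts was not used to find the range. The range was found over all 589 together, of which 252 were highest in hPSC. It is therefore not independent of the groups, and the shares below are a description. Of the 252 transcripts with their highest mean CPM in hPSC, 81 had such a first exon (32.1%), and of the 147 highest in endoderm, 39 did (26.5%). Of the 135 highest in ectoderm 2 did (1.48%), and of the 55 highest in mesoderm none did. Counted by locus, they were 25 of 100 highest in hPSC, 20 of 81 in endoderm, 2 of 92 in ectoderm and 0 of 35 in mesoderm. Their reads summed to 1257 and 1354 CPM in the hPSC libraries and 302 and 292 CPM in endoderm. In ectoderm they summed to 34.7 and 36.2 CPM and in mesoderm to 18.8 and 17.9 CPM. So endoderm lay between hPSC and the other layers, with no overlap between the groups.

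**Figure D1:**
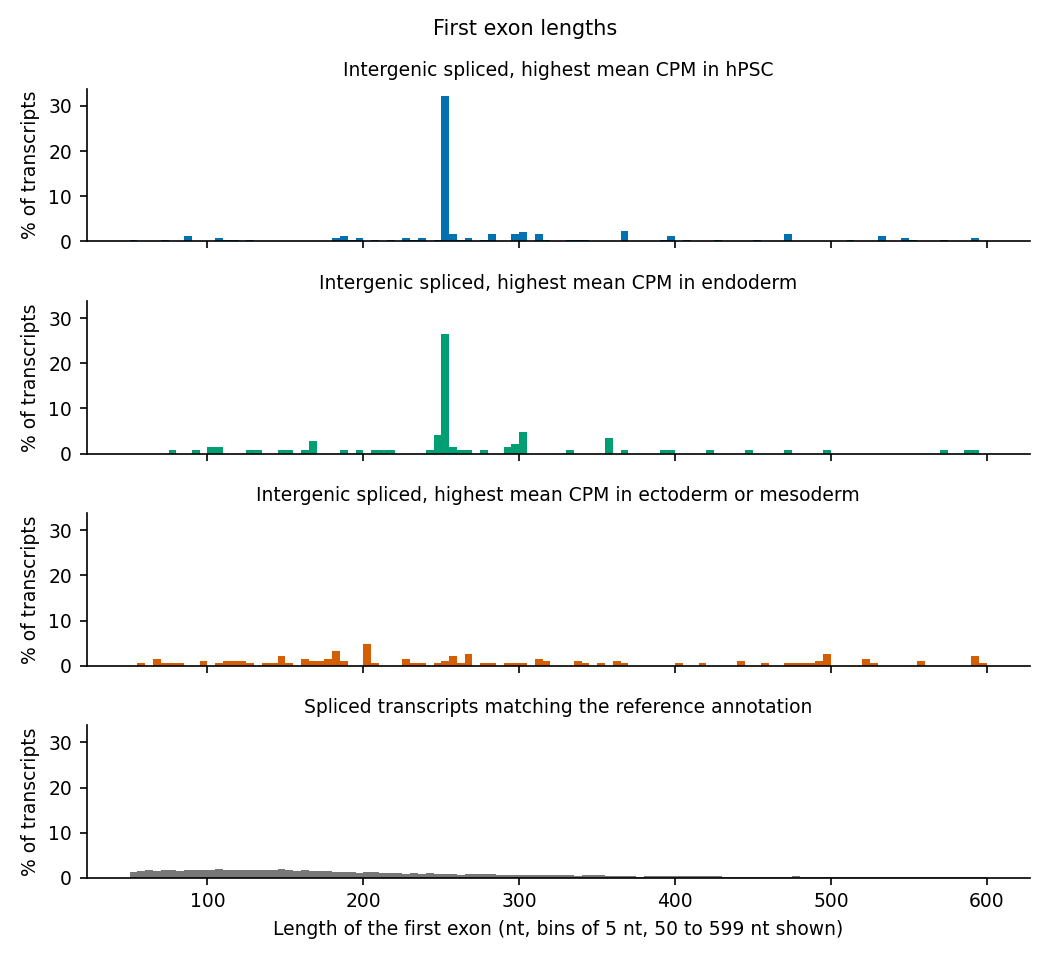
Length of the first exon (x axis, nt, in bins of 5 nt, from 50 to 599 nt) against the percentage of transcripts in each bin (y axis), for intergenic spliced transcripts grouped by where their mean CPM is highest and for reference-matching spliced transcripts. The bin from 250 to 254 nt holds 32.1% of the transcripts highest in hPSC and 26.5% of those highest in endoderm, against 0.941% of the reference-matching ones.

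What follows the first exon also recurred. The second exon began a median of 2110 nt after the transcript start among the 122. In 57 of them, at 24 loci, it began 1900 to 2200 nt after the start, and in 32 of the 467 other intergenic spliced transcripts it did so too. In 47 of the 122, at 18 loci, the whole transcript spanned 5000 to 6000 bp of genome. That span was also common in the group as a whole. It held 84 of the 252 transcripts highest in hPSC (33.3%), 4.44% of those highest in ectoderm, 10.2% in endoderm and 14.5% in mesoderm, and 3.47% of reference-matching spliced transcripts. The groups lay closer by locus. The locus as a whole had such a span at 17 of 100 loci highest in hPSC and 10 of 81 in endoderm. In mesoderm it did so at 5 of 35 and in ectoderm at 4 of 92. The ranges of span and of second exon start were also set after the values were seen.

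A first exon of the same length was found in forms of 5 of 6 reference noncoding genes known to be linked to HERVH, a comparator list. ESRG, a noncoding gene known from pluripotent cells, had 5 spliced forms with a first exon of 253 nt. None of these matched the reference, and its reference-matching form had a first exon of 2167 nt. LINC-ROR, a noncoding RNA known from reprogramming, had 3 such forms of 253 nt, and LINC00458 had forms of 254 nt. LNCPRESS1 had a form of 254 nt and LINC00678 forms of 251 nt, while the forms of LINC01108 had first exons of 399 nt or more. The LINC00678 forms of 251 nt did not match the reference, and its reference-matching form had a first exon of 192 nt. LINC-ROR, LINC00458 and LNCPRESS1 each had a reference-matching form of 253 or 254 nt. Forms in the range of 250 to 254 nt held 358 of the 3102 hPSC reads of the 6 genes (11.5%). They held 227 of 2709 reads of ESRG, 78 of 279 of LINC00678 and 7 of 42 of LNCPRESS1, but 16 of 20 of LINC-ROR and 30 of 43 of LINC00458. All forms of the 6 genes together, most of their reads outside that range, summed to 2565 and 3149 CPM in hPSC, 119 and 135 CPM in ectoderm, 126 and 87.0 CPM in endoderm and 5.65 and 9.92 CPM in mesoderm, with hPSC above every other library. ESRG made up most of that sum, at a mean of 2495 CPM in hPSC. LINC00458 alone had at least as many reads in endoderm (33 and 29) as in hPSC (25 and 18). Whether the intergenic loci lie in copies of HERVH or share sequence with these genes was not analysed here.

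Reads of all 589 transcripts took the largest share of the library in hPSC. The share was 0.517% and 0.568% of the reads in hPSC (mean 0.543% ± 0.0361, SD, n = 2). It was 0.149% ± 0.000475 (SD, n = 2) in endoderm, 0.0969% ± 0.00257 (SD, n = 2) in ectoderm and 0.0666% ± 0.00344 (SD, n = 2) in mesoderm, and no group overlapped another. With every library thinned to 503840 reads, 343 and 339 of the transcripts had a read in hPSC, 244 and 249 in endoderm, 195 and 206 in ectoderm and 159 and 161 in mesoderm. Over all transcripts of the table the order at that depth was different: ectoderm held the most (59740 and 60409) and endoderm the fewest (44192 and 43195). The 589 are not independent of the groups, since the hPSC assembly held 260 of them, ectoderm 171, endoderm 170 and mesoderm 61. Of the 252 highest in hPSC, 209 were held by the hPSC assembly alone. The part of this in the shares and in the numbers detected was not tested.

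**Figure D2:**
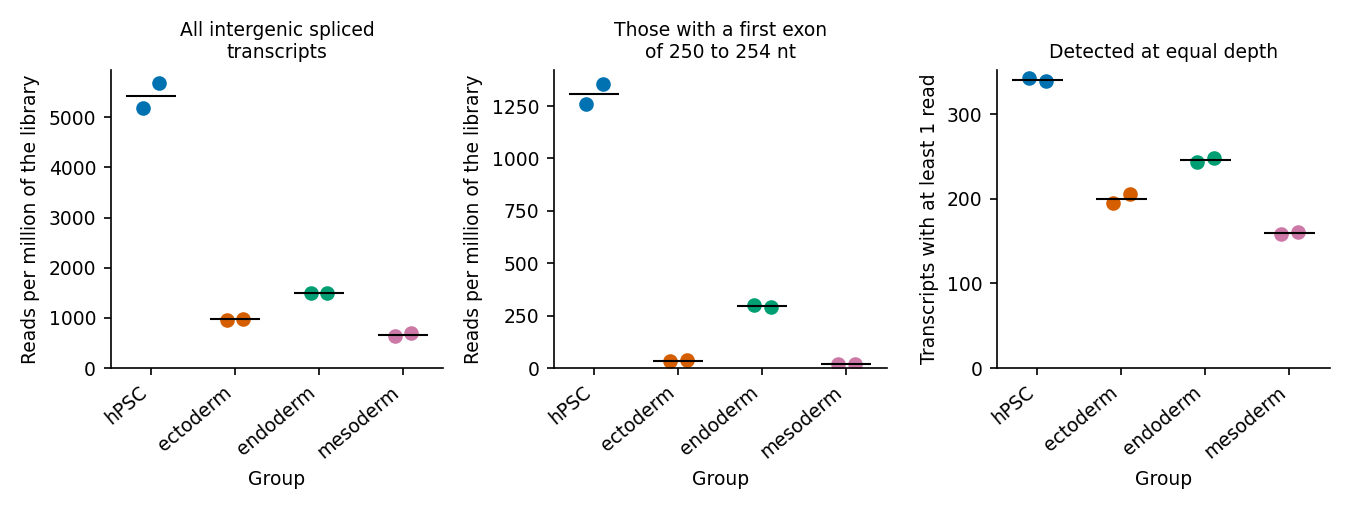
CPM summed over all 589 intergenic spliced transcripts (left), in the 122 with a first exon of 250 to 254 nt (middle), and number of the 589 with at least 1 read after thinning each library to 503840 reads (right), by group (x axis); points are libraries and lines the means of 2. The hPSC libraries lie above all others in each panel and the endoderm libraries come next.

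A few loci carried much of the hPSC signal. The 4 loci with the most reads took 50.5% and 54.1% of the intergenic spliced reads in hPSC and 1.51% to 6.76% in the other libraries. Without the largest of them the hPSC share was 0.448%. The length of what was read also moved with the groups: the mean assembled length per intergenic spliced read was 9026 nt in ectoderm, 8042 nt in mesoderm, 4599 nt in hPSC and 4402 nt in endoderm. Over all transcripts the mean was 4528 nt in ectoderm, 3802 nt in mesoderm, 3206 nt in hPSC and 3024 nt in endoderm. The part of read length in the shares was not tested.

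Counts were tested with edgeR's quasi-likelihood test, with Benjamini-Hochberg adjustment over all transcripts and a threshold of 0.05. Only 69 of the 589 transcripts (at 34 loci) had enough reads to be tested. The other 520 were not tested, and a transcript could enter through the group where it is high, so the counts below describe these 69. In ectoderm against hPSC 59 were called, 57 lower and 2 higher, where 45.9% of all 12440 transcripts tested were called. In endoderm 61 were called, 53 lower and 8 higher, where 26.7% of all were. In mesoderm 55 were called, all lower and 0 higher, where 32.8% of all were (edgeR, 57 at an unadjusted p under 0.05). The median log2 fold change of the 69 was -6.99 in ectoderm, -4.94 in endoderm and -7.16 in mesoderm, beside 0.0069, -0.17 and 0.044 over all transcripts tested. The 3 comparisons share the hPSC libraries. DESeq2 called 50 of the 69 in ectoderm, 31 in endoderm and 47 in mesoderm, where it called 2899, 1606 and 2133 of all 12440.

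Forms of 1 locus share their source, so reads were also summed per locus, and 52 of the 308 loci could be tested. In ectoderm 33 were called, 30 lower and 3 higher, where 49.3% of the 10344 loci and genes tested were called. In endoderm 39 were called, 24 lower and 15 higher (27.7% of all), and in mesoderm 33, with 29 lower and 4 higher (35.6% of all). The median log2 fold change of the 52 loci was -4.19 in ectoderm, -1.52 in endoderm and -4.21 in mesoderm, beside -0.018, -0.13 and 0.011 over all loci and genes tested.

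XLOC_018972 had the most reads. It lies at chr4:87922100-87934281 on the plus strand (GRCh38), 46510 bp from SPP1, the nearest coding gene, and has 22 spliced forms and no single-exon form. It had 540 and 479 reads in hPSC, 13 and 17 in endoderm, 11 and 8 in ectoderm and 7 and 2 in mesoderm. Both hPSC libraries lay far above all others. Its level was 946 ± 133 CPM (SD, n = 2) in hPSC. It fell in ectoderm (log2 fold change -7.14 ± 0.41 (SE), adjusted p = 4.91e-08), in endoderm (-4.85 ± 0.38, adjusted p = 9.84e-07) and in mesoderm (-6.97 ± 0.44, adjusted p = 1.04e-07).

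The forms of XLOC_018972 were built from few splice sites, 3 donors and 8 acceptors, joined by 12 introns. The intron from 2294 to 4597 nt after the locus start was in forms with 69.3% of its hPSC reads. A donor 300 nt after the locus start joined acceptors from 1415 to 9275 nt. The 12 forms with a 251 nt first exon start inside the locus and use that same donor. The form with the most reads, hEDT_00070268 (3 exons, 3010 nt), had 150 and 125 reads in hPSC, 3 and 2 in endoderm, 1 and 1 in ectoderm and none in mesoderm. It was the transcript of smallest p among those lower in each layer. Its hPSC level was 273-fold that of ectoderm (95% interval 74.9 to 2267, counting error only) and at least 87.7-fold that of mesoderm against a floor of 3 reads over the group. Folds given below as at least are set against the same floor and are not 95% limits. All such folds and ratios use library totals, without the scaling (TMM) of the edgeR test. In endoderm its log2 fold change was -5.57 ± 0.47 (adjusted p = 2.02e-06).

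**Figure D3:**
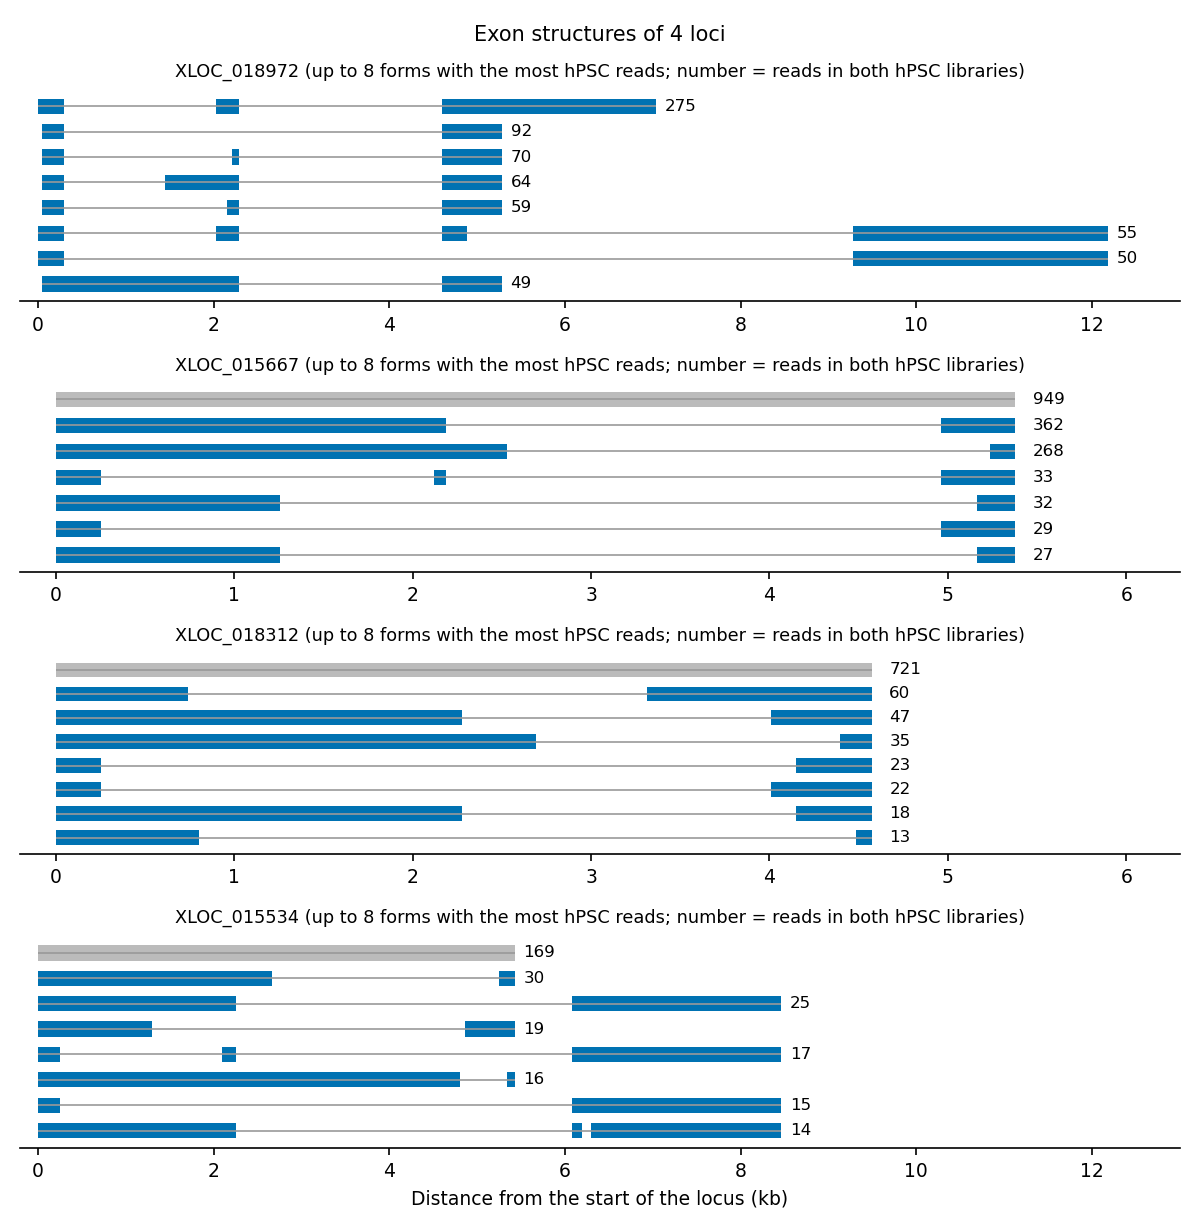
Exons (boxes) and introns (lines) of up to 8 forms of 4 loci, by distance from the start of the locus in kb (x axis, drawn to scale within each panel); blue forms are spliced, grey forms have a single exon, and the number is the reads in both hPSC libraries. XLOC_015667 and XLOC_018312 show a single-exon form with the same ends as the spliced ones, and XLOC_018972 shows none.

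XLOC_006941, with 12 spliced forms, lies at chr13:42849695-42872922 on the minus strand, where RefSeq lists the noncoding gene LINC00428. It had 391 and 501 reads in hPSC, 4 and 3 in endoderm, 2 and 5 in ectoderm and 1 and 2 in mesoderm. Its log2 fold change was -8.33 ± 0.47 in ectoderm (adjusted p = 4.91e-08), -6.75 ± 0.47 in endoderm (adjusted p = 4.7e-07) and, as a ratio over 3 mesoderm reads, hPSC was 285-fold above mesoderm (95% interval 97.1 to 1383). An intron of 3511 nt was in forms with 74.0% of the hPSC reads. Further introns, of 11395 and 10586 nt, were in forms with 52.7% and 36.5% of those reads.

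XLOC_015667 lies at chr20:40269399-40274776 on the plus strand. Its 6 spliced forms share both ends. They had 263 and 488 reads in hPSC, 2 and 3 in endoderm and none in ectoderm or mesoderm. The hPSC level was at least 497-fold that of ectoderm and at least 240-fold that of mesoderm. In endoderm the log2 fold change was -6.99 ± 0.57 (adjusted p = 3.04e-06).

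XLOC_002479 was the locus of the 4 with the most endoderm reads. It lies at chr1:223012986-223029806 on the minus strand, 6991 bp from DISP1, a coding gene whose product releases Hedgehog proteins. Its 11 spliced forms had 163 and 260 reads in hPSC, 21 and 36 in endoderm, 4 and 4 in ectoderm and 2 and 2 in mesoderm. The log2 fold change was -7.10 ± 0.49 in ectoderm (adjusted p = 1.51e-07), -2.68 ± 0.38 in endoderm (adjusted p = 0.00012) and -6.86 ± 0.54 in mesoderm (adjusted p = 4e-07). Endoderm lay below hPSC and above the other layers in both repeats.

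Other loci were near or at 0 outside hPSC. XLOC_018312 (chr3:112418447-112423018, 7 forms) had 97 and 121 reads in hPSC, 0 and 4 in endoderm, 1 and 2 in ectoderm and none in mesoderm, where hPSC was at least 69.5-fold higher. XLOC_022060 (chr6:18754180-18759584, 6 forms) had 79 and 101 in hPSC, 9 and 6 in endoderm, 1 and 0 in ectoderm and none in mesoderm, at least 57.4-fold lower. XLOC_015534 (chr20:12754170-12765641, 11 forms) had 81 and 96 reads in hPSC and none in any other library. Its level in hPSC was at least 117-fold that of ectoderm, 63.9-fold that of endoderm and 56.5-fold that of mesoderm. These 3 loci lie on different chromosomes and each has forms with a first exon of 253 nt.

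XLOC_019821 (chr4:179166512-179170222, 5 forms, all with a first exon of 251 nt) had 52 and 89 reads in hPSC, and 1 read in all other libraries together. XLOC_012621 (chr19:53831750-53837312, 3 forms) lies 7356 bp from NLRP12, a coding gene of innate immunity. It had 56 and 63 reads in hPSC and 1 read elsewhere. Their hPSC levels were at least 93.4-fold and 78.8-fold those of ectoderm. At 3 further loci all 6 differentiated libraries held no read: XLOC_013957 had 31 and 34 in hPSC, XLOC_014347 had 24 and 20, and XLOC_018984 had 21 and 16. In endoderm they were at least 23.5-fold, 15.9-fold and 13.4-fold lower.

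**Figure D4:**
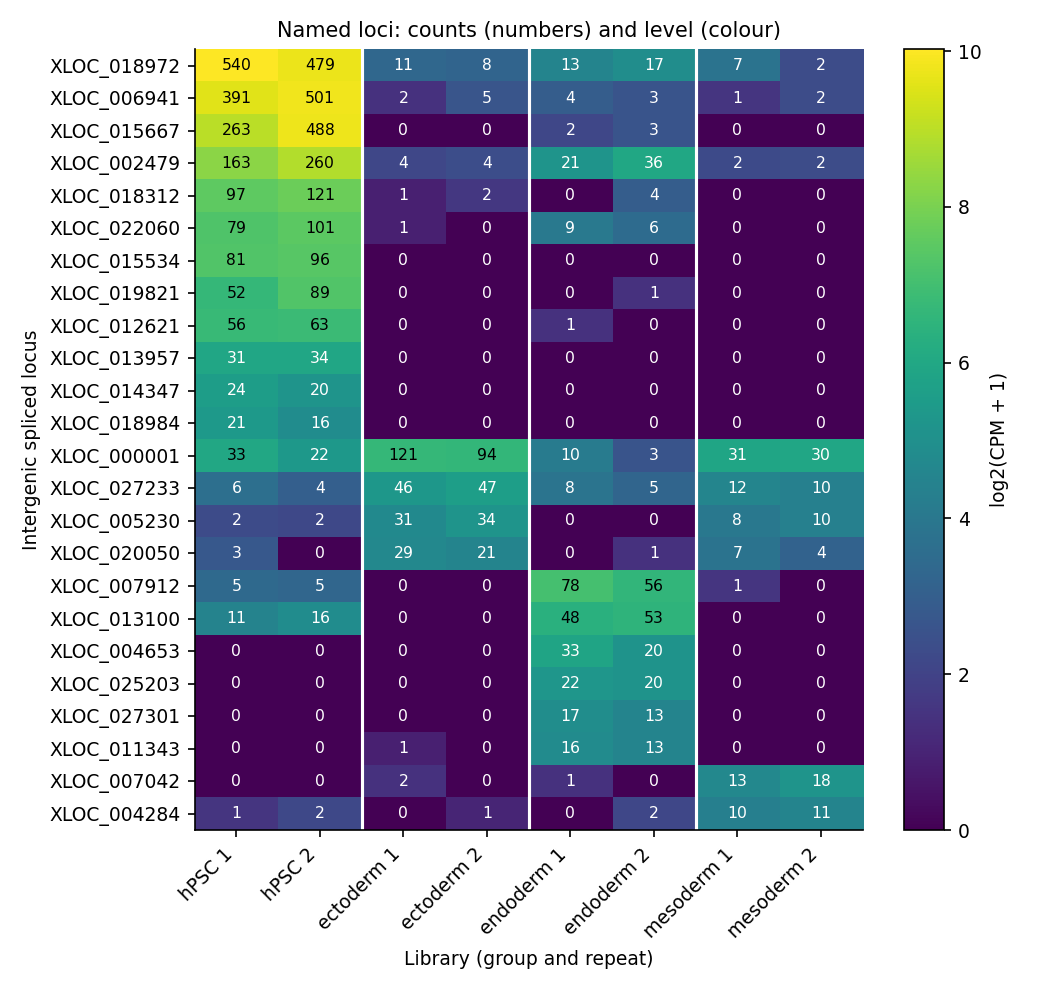
Reads of the spliced forms of 24 named loci (numbers) in each library (x axis), coloured by log2(CPM + 1) and ordered by the group of highest mean CPM. The 12 loci at the top have 16 to 540 reads in each hPSC library, and 5 of the 6 loci highest in endoderm have at most 5 reads in every other library.

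Many of these loci also held reads with no splice. A single-exon form with the same ends was assembled for 73 of the 589 transcripts, at 26 loci. The spliced share was taken only at loci with a single-exon intergenic form and no transcript of another class, which left out XLOC_018972. At 15 such loci with at least 20 intergenic reads in both hPSC libraries, the share of both summed was 14.3% to 84.9% (median 53.6%). It was 42.3% and 45.3% at XLOC_015667 and 86.5% and 83.6% at XLOC_006941. At XLOC_019821 it was 14.5% and 15.3%. At these 3 loci the repeats lay closer to each other than the loci did. Over all 15 the repeats differed by a median of 5.30 percentage points and by up to 20.1. At XLOC_002479 the share was 66.5% and 66.5% in hPSC and 67.7% and 80.0% in endoderm. Whether a single-exon read is an unspliced RNA was not tested.

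**Figure D5:**
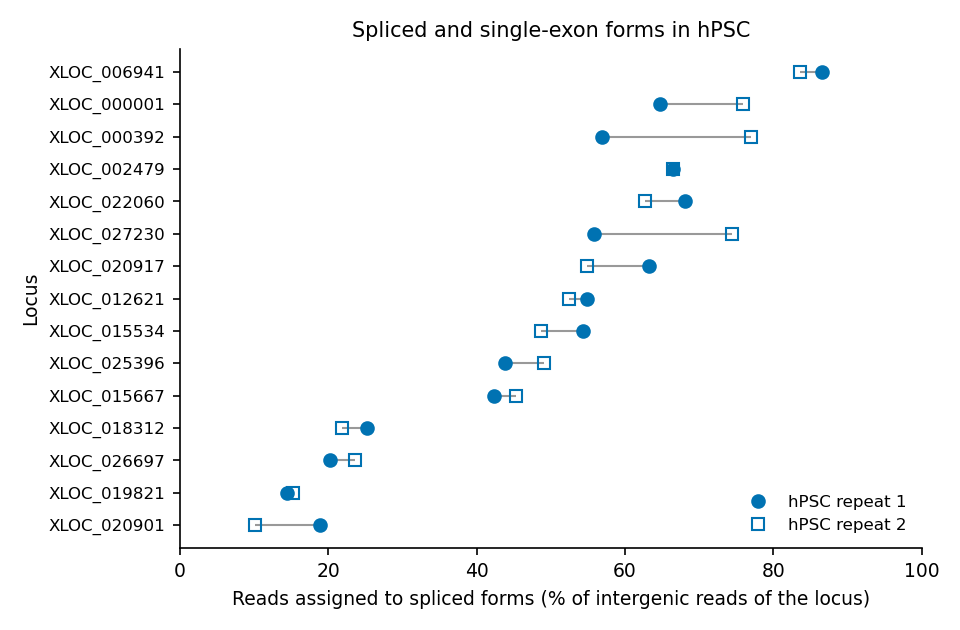
Share of the intergenic reads of a locus that were assigned to spliced forms (x axis, percent) in hPSC repeat 1 (filled circles) and repeat 2 (open squares) for 15 loci (y axis) with at least 20 reads in both. Only loci with a single-exon intergenic form and no transcript of another class are shown. The loci range from 14.3% to 84.9% with both repeats summed, and the largest gap between repeats is 20.1 percentage points.

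Loci high in endoderm were fewer in reads. XLOC_007912, chosen after its values were seen, had the most, at chr14:87215627-87240487 on the minus strand and 597333 bp from GALC, the nearest coding gene. Its 13 forms had 78 and 56 reads in endoderm, 5 and 5 in hPSC, 1 and 0 in mesoderm and none in ectoderm. It rose in endoderm against hPSC (log2 fold change 3.94 ± 0.43, adjusted p = 2.02e-05), and 6 of its forms have a first exon of 253 nt.

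Other loci had no read in hPSC. XLOC_004653 (chr11:37578421-37583167, 2 forms) had 33 and 20 reads in endoderm and none in the other 6 libraries, so it was at least 16.3-fold higher than in hPSC. XLOC_025203 (chr9:25669225-25676348, 3 forms of 253 nt in the first exon) had 22 and 20 in endoderm and none elsewhere, at least 12.9-fold higher. It lies 41 bp from TUSC1, a coding gene. XLOC_027301 on chromosome X had 17 and 13 in endoderm and none elsewhere, at least 9.23-fold higher. XLOC_011343, 15082 bp from CD300E, had 16 and 13 in endoderm and 1 read in ectoderm, at least 8.92-fold higher than in hPSC. All 4 passed edgeR's test against hPSC (adjusted p from 0.00016 to 0.000714). With DESeq2, XLOC_004653 did not (adjusted p = 0.305, over alternatives 1.89e-12 to 0.305).

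XLOC_013100, also chosen after its values were seen, has a single form, hEDT_00046792, with 2 exons and 3595 nt, 2598 bp from the coding gene COX7A1. It had 11 and 16 reads in hPSC, 48 and 53 in endoderm and none in ectoderm or mesoderm. It rose in endoderm against hPSC (log2 fold change 2.05 ± 0.42, adjusted p = 0.00243, transcript level) and stood at least 17.9-fold lower in ectoderm and 8.61-fold lower in mesoderm. hEDT_00015963, a form of XLOC_004653 with 3 exons and 779 nt, was the transcript of smallest p among those higher in endoderm. It had 30 and 19 reads there and 0 in every other library, so endoderm was at least 15.1-fold above hPSC. With DESeq2 its adjusted p was 0.343, the largest over alternatives from 1.29e-09.

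The 3 loci called higher in ectoderm than in hPSC also had reads in mesoderm. XLOC_027233 on chromosome X (chrX:126183731-126460436, 4 forms) had 46 and 47 reads in ectoderm, 6 and 4 in hPSC, 8 and 5 in endoderm and 12 and 10 in mesoderm. It rose in ectoderm (log2 fold change 1.78 ± 0.44, adjusted p = 0.00389). Its form hEDT_00097884 (6 exons, 15794 nt) had 25 and 24 reads in ectoderm against 1 and 2 in hPSC, 8.22-fold higher (95% interval 2.65 to 41.2). With DESeq2 neither passed (adjusted p = 0.0524 for the locus and 0.0874 for the form, the largest values over alternatives from 0.000768 and 0.00206).

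XLOC_005230 (chr12:5121915-5196389, 6 forms) had 31 and 34 reads in ectoderm, 2 and 2 in hPSC, 8 and 10 in mesoderm and none in endoderm. It rose in ectoderm (log2 fold change 2.55 ± 0.60, adjusted p = 0.00316). In mesoderm its value was 1.95 ± 0.70 (edgeR adjusted p = 0.0421). That call was lost with DESeq2 (adjusted p = 0.197, over alternatives 0.0397 to 0.197), without a count filter (0.0611), with the replicate block (0.0542) and without any single hPSC, ectoderm or mesoderm library (0.0633 to 0.158). XLOC_020050 on chromosome 5, a single form of 11471 nt in a region where RefSeq lists the pseudogene GUSBP16, had 29 and 21 reads in ectoderm, 3 and 0 in hPSC, 0 and 1 in endoderm and 7 and 4 in mesoderm. Its level in ectoderm was 8.39-fold that of hPSC (95% interval 2.71 to 42.1, edgeR adjusted p = 0.0114). It did not pass with DESeq2 (adjusted p = 0.0962, over alternatives 0.00136 to 0.0962), without hPSC repeat 2 (0.0704) or without ectoderm repeat 1 (0.0550). Reads from near-identical copies of a region may be split between them, and how they were counted is not given in the sources used here.

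Loci higher in mesoderm had few reads. XLOC_007042 (chr13:91173740-91202097, 2 forms, over LINC00379 in RefSeq) had 13 and 18 reads in mesoderm, none in hPSC, 2 and 0 in ectoderm and 1 and 0 in endoderm, at least 10.8-fold higher than in hPSC. XLOC_004284 (chr11:95277976-95309852, 3 forms) had 10 and 11 in mesoderm, 1 and 2 in hPSC, 0 and 1 in ectoderm and 0 and 2 in endoderm. Its level was 7.31-fold that of hPSC (95% interval 2.18 to 38.3), with an adjusted p of 0.0233. That call was lost with DESeq2 (adjusted p = 0.175, over alternatives 0.0162 to 0.175), without hPSC repeat 1 (0.0872), and without mesoderm repeat 1 (0.0823) or 2 (0.112).

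Between the layers, 21 of the 69 transcripts were called in ectoderm against endoderm (16 lower and 5 higher, where 62.6% of all were called). Endoderm against mesoderm gave 17 (1 lower and 16 higher, where 45.8% of all were called). Ectoderm against mesoderm gave 2 (1 lower and 1 higher, where 33.6% of all were called). The last is the pair with the fewest calls in these transcripts, and the 2 calls became 6 without hPSC repeat 1 or without repeat 2, and 1 without any single ectoderm or mesoderm library. hEDT_00046792 led both endoderm comparisons, at least 61.7-fold above ectoderm and at least 29.7-fold above mesoderm. hEDT_00078312 (chr6:152683287-152689967, 2 exons) had no read in ectoderm, 4 and 6 in mesoderm, 23 and 17 in endoderm and 11 and 13 in hPSC, so mesoderm was at least 6.92-fold above ectoderm. MYCT1, 7928 bp away, is the nearest gene of GENCODE 29.

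hEDT_00056614 (chr2:193534670-193552732, 17918 nt) had 24 and 21 reads in ectoderm, 2 and 2 in mesoderm, 1 and 6 in hPSC and 1 and 4 in endoderm. Ectoderm against mesoderm gave a log2 fold change of 2.26 ± 0.71 (adjusted p = 0.0218). It was lost with DESeq2 (adjusted p = 0.242, over alternatives 0.00336 to 0.242) and without any 1 of the ectoderm and mesoderm libraries (0.0736 to 0.161). hEDT_00076467, the form of XLOC_020050, was 27.3-fold higher in ectoderm than in endoderm (95% interval 4.68 to 1099) and 12.5-fold higher in mesoderm than in endoderm (95% interval 1.81 to 536, edgeR adjusted p = 0.0443). These folds use library totals. The fitted log2 fold changes, which use TMM, were 4.04 for ectoderm against endoderm and -3.06 for endoderm against mesoderm. The second difference rests on 11 reads against 1. It was lost without any 1 of the 6 libraries of the differentiated groups (adjusted p from 0.0626 to 0.223), with DESeq2 (0.172), without a count filter (0.131) and with the replicate block (0.0592), where all alternatives ran from 0.0175 to 0.223.

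Scaffolds outside the assembled chromosomes held 37 of the 589 transcripts. They took 18.6% and 17.6% of the intergenic spliced reads in ectoderm and 19.9% and 26.4% in mesoderm, against 5.06% and 1.53% in hPSC and 3.08% and 3.44% in endoderm. XLOC_000001, on the scaffold GL000195.1, has 17 forms and had 33 and 22 reads in hPSC, 10 and 3 in endoderm, 121 and 94 in ectoderm and 31 and 30 in mesoderm. Its level was 51.3 ± 17.3 CPM (SD, n = 2) in hPSC and 99.8 ± 3.7 CPM (SD, n = 2) in ectoderm, with no overlap, but the test did not pass (log2 fold change 0.54 ± 0.33, adjusted p = 0.183). It fell in endoderm (-1.84 ± 0.46, adjusted p = 0.00822), a call lost without endoderm repeat 2 (adjusted p = 0.105), and did not pass in mesoderm (-0.02 ± 0.36, adjusted p = 0.976). On the scaffold KI270733.1, hEDT_00000090, chosen after its values were seen, had 58 reads in hPSC repeat 1 and 5 in repeat 2, so its hPSC level rests on 1 library.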

How the data were processed

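The authors deposited raw read counts per assembled transcript for 8 long-read libraries, with no normalization. For endoderm the unit on record is estimated counts, though the authors' deposited values are whole raw counts as in the other groups, and nothing was rounded. Per the submitters' processing notes, minimap2, StringTie and GRCh38 were used. Versions, the counter, strand use and the reading of similar copies are not given in the sources used here. Of 14167 reference-matching spliced transcripts listed in GENCODE 29, 14160 (99.95%) had the same introns on GRCh38.

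Libraries were grouped by title. Counts of all transcripts, or sums per assembly locus, were tested in 1 fit over 8 libraries with edgeR 4.0.16 in R 4.3.3 (TMM, filterByExpr with a minimum count of 10, glmQLFit, glmQLFTest, two-sided, Benjamini-Hochberg at 0.05) without a term for the repeat number. The SE is the log2 fold change divided by the square root of F. Where a group had 0 reads the fold, given as at least, is set against a floor of 3 reads over the group. It takes the count of the higher group as exact, so it is not a 95% limit. With 1 to 3 reads it is a ratio with an exact 95% binomial interval, which covers counting error only. Folds of both kinds use library totals without TMM, so they can differ in size from the fitted log2 fold changes. Alternatives were DESeq2 1.42.0 and its size factors, other count filters, a repeat block, each library left out, and, added after seeing the data, single-exon forms included in the locus. On simulated data for ectoderm against hPSC, 66.5% of 200 transcripts changed 4-fold were recovered among 12440, and 82% of 200 among 10344 loci and genes. For endoderm the values were 52% and 69.5%, and for mesoderm 51% and 72%. False calls made up 6.99%, 3.70% and 6.42% of the transcripts called in ectoderm, endoderm and mesoderm. Among loci and genes they made up 3.53%, 2.80% and 7.69%.

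The transcripts, the lists and the tests were chosen with earlier results of these data known. Named loci are the 6 with the most reads, per layer the called loci (at least 10 reads in both libraries of the higher group) with the 4 highest and 4 lowest fold changes, the transcript of smallest p per comparison and direction, and those with the most exons and the greatest length.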

Additional observations from a re-analysis of the deposited data

Results flagged for a closer look

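Transcripts that differ between layers were singled out by a test of the difference itself (edgeR, transcript level). hEDT_00046792 was lower in ectoderm than in endoderm (fitted log2 fold change -9.22) and higher in endoderm than in mesoderm (9.22). Both values set 101 reads against 0, so their size depends on the prior count. hEDT_00076467 was higher in ectoderm than in endoderm (4.04) and lower in endoderm than in mesoderm (-3.06). hEDT_00078312 was lower in ectoderm than in mesoderm (-5.71, 0 reads against 10), and hEDT_00056614 was higher in ectoderm than in mesoderm (2.26).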

How the results depend on the processing

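The filter on low counts moved the counts of calls most. Without it, all 589 transcripts and 308 loci were tested. Ectoderm, endoderm and mesoderm against hPSC then gave 163, 125 and 127 transcripts, where 8069, 3490 and 4362 of all 96614 were called. They gave 71, 67 and 50 loci, where 6115, 3308 and 4200 of all 27304 loci and genes were called. Ectoderm against endoderm, ectoderm against mesoderm and endoderm against mesoderm gave 96, 11 and 47 transcripts, where 13103, 5971 and 6303 of all were called. With a minimum count of 20 the same 6 comparisons gave 23, 22, 22, 5, 0 and 6 of the 23 transcripts tested. Of all 7168 transcripts tested 3624, 2405, 2809, 4849, 2765 and 3921 were called. Endoderm and mesoderm against hPSC gave 21 and 20 of the 25 loci tested, where 2483 and 3060 of all 7758 loci and genes were called. These settings test more or fewer transcripts; the 0 in ectoderm against mesoderm (edgeR) had 1 at an unadjusted p under 0.05. DESeq2 gave 31 in endoderm against hPSC, 13 in ectoderm against endoderm and 1 in ectoderm against mesoderm, and the cause was not tested. Over all 12440 transcripts it called 1606, 5417 and 1764 in these comparisons. With each library left out in turn, the 6 comparisons gave 57 to 60, 56 to 62, 54 to 57, 16 to 23, 1 to 6 and 12 to 18 transcripts, and the layers against hPSC gave 31 to 33, 33 to 41 and 26 to 34 loci. Where 1 library was left in a group, it was assumed to vary like the others. DESeq2 size factors moved the median log2 fold change of all transcripts in ectoderm against hPSC from 0.0069 to 0.11.

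With the replicate block the comparisons gave 59, 60, 55, 21, 2 and 16 transcripts and 33, 39 and 32 loci, and hEDT_00076467 in endoderm against mesoderm (adjusted p = 0.0592) and XLOC_005230 in mesoderm against hPSC (0.0542) were lost, the only named calls it changed. The labels link same-numbered libraries by their number alone. Deviations of same-numbered libraries correlated by -0.043 to 0.157 between groups, the highest between hPSC and endoderm. With so few libraries per group, these values cannot show whether such libraries shared a culture or a batch.

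The share of reads in hPSC, ectoderm, endoderm and mesoderm was 0.108%, 0.0226%, 0.0320% and 0.0197% for transcripts held by at least 2 assemblies, and 0.225%, 0.0351%, 0.0513% and 0.0244% for those of 3 or more exons and at least 200 nt. Without the locus with the most reads it was 0.448% in hPSC and 0.147% in endoderm. Detected at equal depth with at least 3 reads were 182.5, 62, 88.5 and 37 (means of 2 libraries). The order of the groups was the same under each of these.

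XLOC_000001 in mesoderm against hPSC, which passed in no setting, changed sign: 0.0065 with DESeq2, 0.0036 with its size factors, 0.0064 without a filter, 0.031 at a minimum count of 20 and, with each library left out in turn, -0.19 to 0.19 (0.19 without hPSC repeat 1 and 0.032 without mesoderm repeat 2). Of all alternatives of the named values, 670 kept direction and side of the threshold, 35 lost the call, 3 gained one and 6 changed sign. Totals of 503840 to 1180888 reads leave 520 of the 589 transcripts under the filter.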
